A study of Sus scrofa with 12 samples.

Results

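Genes of retinol and carotenoid handling, 9 listed by symbol, were looked up among the gene names of the deposited expression table and described in the jejunum of 12 piglets. Of the 9 genes, 6 were found (CRABP1, CRABP2, LRAT, RARA, RARB and SCARB1), in 7 of 41264 rows of the table, which holds 17049 different gene names. RBP2 and BCO1 were not found by symbol and were not analysed here. ALDH1A1 was not found by symbol either, but the pig gene annotation pairs it with the row named ENSSSCG00000028996. That row falls outside the choice by gene name, so that it is given beside the 6 genes and is not counted with them. SCARB1 had 2 rows, which were summed, and the larger of them held 71.2% to 89.3% of the sum.

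RNA-seq was carried out on 3 piglets in each of 4 groups. W_Con piglets were taken at 21 days of age, the day of weaning, and PW_Con piglets at 28 days of age, 7 days later, and their sows received the control diet. W_Res and PW_Res piglets had the same ages, and their sows received feed with resveratrol at 300 mg/kg, a polyphenol found in plants, starting 20 days after they were bred and lasting until the end of lactation. The public records describe Landrace semen, cross-fostering within a diet and piglets that stayed in the nursing pens for the week after weaning, whereas the study describes Yorkshire × Duroc litters moved to a nursing room, so that the housing behind the 28-day groups is uncertain. The study describes male piglets for the control groups, with a piglet taken from each litter at either age, so that control piglets of both ages may share litters. Each library is 1 piglet and holds bulk RNA of jejunal tissue, in which fewer cells of a type and less RNA per cell cannot be told apart.

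Dietary vitamin A reaches the enterocyte as retinyl esters, which are cut to retinol in the lumen, and as provitamin A carotenoids, which enter through scavenger receptors and are cleaved inside the cell to retinal. Retinol bound to its cellular binding protein is esterified by lecithin:retinol acyltransferase and leaves the cell in chylomicrons. A smaller share is oxidized through retinal to retinoic acid, which cellular retinoic acid-binding proteins carry and which acts on nuclear retinoic acid receptors paired with retinoid X receptors. In the small intestine retinoic acid is known to repress carotenoid uptake and cleavage through the transcription factor ISX and to give lymphocytes their homing receptors for the gut.

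The values are FPKM, fragments scaled to exon length and to mapped fragments, so levels can be set side by side between genes, but how many reads stand behind a gene is unknown. In each library 11716 to 13166 named genes reached 0.5 FPKM, and rows without a gene name held 5.48% to 8.47% of the summed FPKM. The median correlation of a library with the other 11 was 0.906 to 0.938, except for W_Res replicate 2, at 0.881. The marker lists set 2 features apart before any group is compared. The 4 distal small intestine markers found (FABP6, SLC10A2, CUBN and SLC51A, of 5 listed, none of them at 0) summed to between 61.8 and 8285 FPKM in W_Con, 6710 and 9921 in PW_Con, 52.0 and 6399 in W_Res, and 95.9 and 24552 in PW_Res. FABP6, the ileal bile acid-binding protein, was at 8055, 1231 and 9.10 FPKM in W_Con replicates 1 to 3, at 9621, 8791 and 6518 in PW_Con, at 128, 12.2 and 6146 in W_Res and at 24110, 1.70 and 4.81 in PW_Res. The labelled segment is jejunum in all 12 libraries, and no PW_Con library was among the 4 with FABP6 under 20 FPKM. The 5 smooth muscle markers found, of 6 listed and none of them at 0, summed to 148 to 621 FPKM in W_Con, 399 to 547 in PW_Con, 644 to 3855 in W_Res and 192 to 619 in PW_Res, with W_Res replicate 2 the highest. Both features are given again beside the genes they move with.

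Groups were compared on log2(FPKM + 1) with limma over the 12886 genes with a mean of at least 0.5 FPKM, a scale on which a fold change understates the change of low genes. The study's standard asks for a log2 fold change beyond 1 in either direction together with an unadjusted P under 0.05. Adjusted p-values are by Benjamini and Hochberg's method over all genes tested. Of the 6 genes found, 5 passed the filter, and CRABP2, at a mean of 0.306 FPKM, did not. LRAT met the standard in 2 comparisons, lower after weaning in control litters and higher with resveratrol at 28 days, and no other of the 5 genes met it in any of the 5 comparisons. No gene of the 5 had a limma adjusted p under 0.05 in a comparison, and over all genes tested such calls came only with resveratrol at 21 days, for 6 genes (0.0466%). That number depends on single libraries: without W_Res replicate 1 it was 120 there and 110 after weaning in resveratrol litters, and without W_Res replicate 3 it was 109 and 130, while the linear model with the Ballgown covariate gave 39 in control weaning. The 21-day number also depended on the processing. It was 1 with a pseudocount of 0.1, median-of-ratios rescaling or a minimum of 2 FPKM, and 0 with the replicate block. Without the filter on low values it was 11, beside 8 after weaning in resveratrol litters. An unadjusted P under 0.05 was found for 2 of 5 in control weaning (LRAT and RARA), 1 of 5 with resveratrol at 28 days (LRAT) and 0 of 5 in the other comparisons. That share over all genes tested was 15.3% and 17.6% for weaning in control and resveratrol litters, 18.5% and 7.76% for resveratrol at 21 and 28 days, and 13.7% for the difference of the weaning effects. The linear model with the Ballgown covariate also gave none of the 5 an adjusted p under 0.05.

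**Figure D1:**
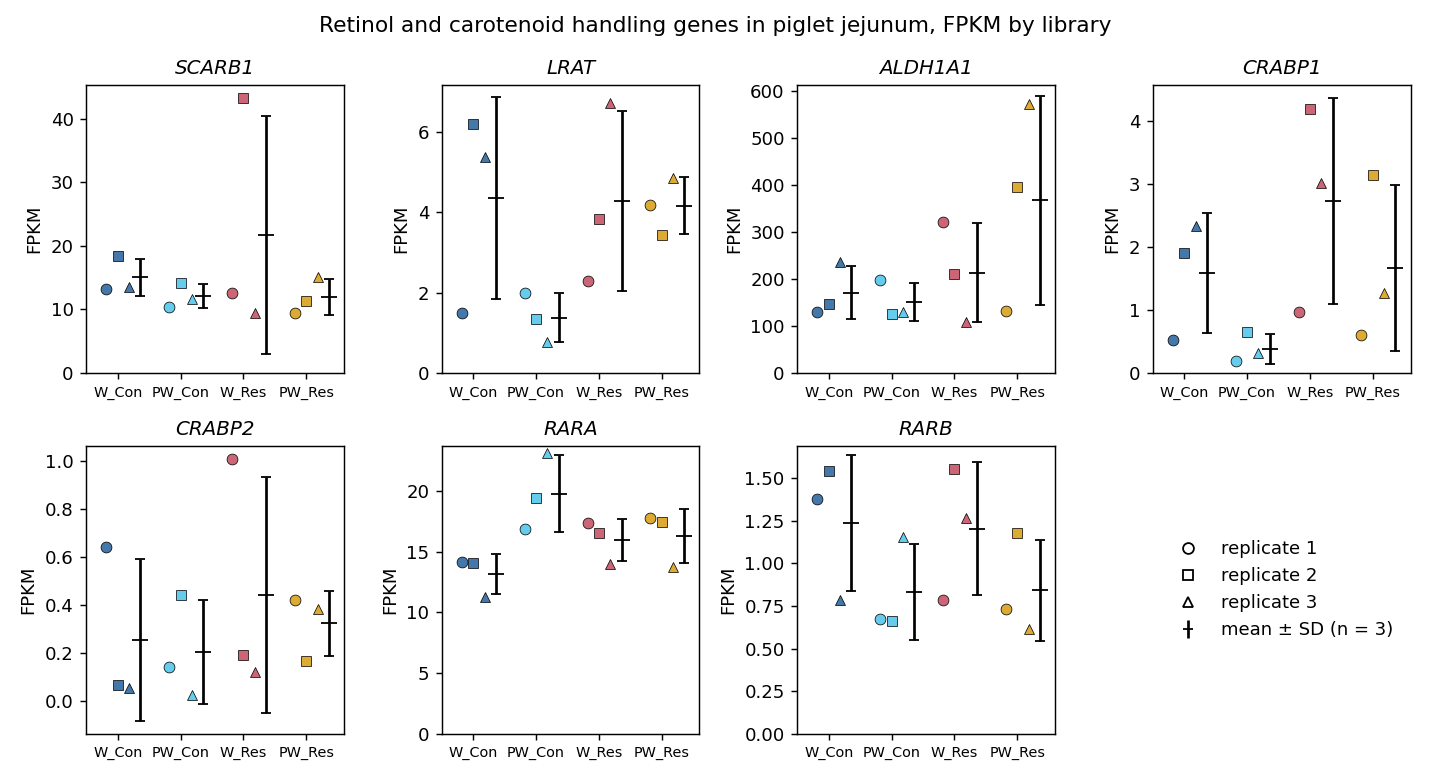
FPKM of the 6 genes found by name and of ALDH1A1 in each library, by group, on linear axes (circles, squares and triangles are replicates 1, 2 and 3, and bars are the mean ± SD of 3 libraries). The 3 PW_Con libraries of LRAT, from 0.768 to 1.99 FPKM, sit below the 3 PW_Res libraries, from 3.43 to 4.86, while the 43.3 FPKM of SCARB1 in W_Res replicate 2 stands apart.

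SCARB1 encodes the scavenger receptor that takes up carotenoids, cholesterol and other lipids at the brush border. It was at 13.2, 18.4 and 13.6 FPKM in W_Con, at 10.4, 14.1 and 11.7 in PW_Con, at 12.6, 43.3 and 9.41 in W_Res and at 9.47, 11.3 and 15.0 in PW_Res. All 4 groups overlapped, and 11 of the 12 libraries lay between 9.41 and 18.4 FPKM. The group means ran from 21.8 ± 18.7 FPKM in W_Res (SD, n = 3) over 15.0 ± 2.88 in W_Con and 12.0 ± 1.90 in PW_Con to 11.9 ± 2.84 in PW_Res, and neighbours in that order did not differ beyond their spread. The fitted log2 fold changes lay between -0.53 after weaning in resveratrol litters (95% confidence interval -1.47 to 0.41) and 0.21 with resveratrol at 21 days (-0.73 to 1.15), and both intervals reach past the fold limit of the study's standard. Both ends of this range changed sign without W_Res replicate 2, to 0.10 and -0.42. They also changed sign in other fits that kept this library, where they reached 0.32 and -0.48. Across the 12 libraries the level of SCARB1 had a Pearson's r of 0.55 with the smooth muscle score, the mean log2 value of those markers, and a Spearman's rho of 0.02. With the distal marker score the r was -0.53 and the rho -0.55.

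LRAT, the acyltransferase that esterifies retinol for storage and export, was the only 1 of the 5 genes tested to meet the study's standard in the main limma fit. It was at 1.48, 6.19 and 5.38 FPKM in W_Con, at 1.99, 1.35 and 0.768 in PW_Con, at 2.28, 3.83 and 6.71 in W_Res and at 4.19, 3.43 and 4.86 in PW_Res. The PW_Con libraries were low throughout, while W_Con replicate 1 lay among them and the other W_Con libraries lay above all PW_Res libraries. Mean levels were 4.35 ± 2.51 in W_Con, 4.28 ± 2.25 in W_Res, 4.16 ± 0.715 in PW_Res and 1.37 ± 0.611 FPKM in PW_Con (SD, n = 3 each), and the only neighbours in that order that did not overlap were PW_Res and PW_Con. The coefficient of variation was 57.8% in W_Con, 52.5% in W_Res, 44.6% in PW_Con and 17.2% in PW_Res.

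After weaning in control litters LRAT was lower by a log2 fold change of -1.07 (standard error 0.41, 95% confidence interval -1.96 to -0.17, limma adjusted p = 0.255). At the study's standard this was 1 of 5 genes, where 3.1% of all genes tested met it, 1.74% in the lower direction. Libraries of the 2 groups overlapped through W_Con replicate 1. The standard was no longer met without W_Con replicate 2 (log2 fold change -0.78), W_Con replicate 3 (-0.87) or PW_Con replicate 3 (-0.87). The difference ended just inside the fold limit, at -0.97, in a fit with the smooth muscle score as a covariate, and was -1.03 with the distal marker score as a covariate. In this comparison the 6 proximal small intestine markers were all lower, 2 of them at the standard, with a median log2 fold change of -1.29. Of the enterocyte and brush border markers 5 of 7 were lower, 2 at the standard (median -0.16). Of the fibroblast markers 5 of 6 were lower, 1 at the standard (median -0.45). Higher were 3 of 4 distal markers (median 1.44) and 5 of 5 smooth muscle markers (median 0.36), none at the standard. The part of the proximal, enterocyte and fibroblast markers in the difference was not tested.

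At 28 days LRAT was higher in resveratrol litters, with 3.04 times the mean FPKM. The fitted difference was 1.15 on the log2 scale (standard error 0.41, 95% confidence interval 0.25 to 2.04, limma adjusted p = 0.570). The 3 PW_Res libraries all lay above the 3 PW_Con libraries. A two-sided exact permutation test then gives p = 0.1, the smallest value possible with 3 libraries a group. Groups did not overlap for 17.2% of all genes tested in this comparison, and 1.55% met the standard, 0.652% in the higher direction, against 1 of 5 here. The difference lost the standard without PW_Con replicate 3 (0.95), without PW_Res replicate 3 (1.05) and in the linear model with the Ballgown covariate (0.82), and was 1.09 with the distal marker score and 1.07 with the smooth muscle score as covariates. Of the proximal markers 4 of 6 were higher in this comparison, 1 at the standard (median log2 fold change 0.96). Lower were 3 of 4 distal (median -1.36), 8 of 8 lymphocyte, 5 of 5 smooth muscle and 3 of 3 macrophage and dendritic cell markers, none at the standard. Of the crypt and cell division markers 3 of 5 were lower, 1 at the standard (median -0.25). The part of the proximal, lymphocyte, macrophage and crypt markers was not tested. Control weaning and resveratrol at 28 days share the 3 PW_Con libraries, so the low LRAT of that group enters both.

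In resveratrol litters the level of LRAT after weaning was close to that before it, with a log2 fold change of 0.05 and an interval of -0.85 to 0.94, and at 21 days the difference between litters was 0.04 with an interval of -0.86 to 0.93. Both moved in other fits: the first was -0.49 with the smooth muscle score as a covariate and -0.77 in the linear model with the Ballgown covariate, and the second 0.59 and 0.47, and -0.084 under quantile normalization. The weaning effect in resveratrol litters minus that in control litters was 1.11 (standard error 0.58, limma adjusted p = 0.413) and did not pass the test. It met the standard without W_Con replicate 1, at 1.59, and without W_Res replicate 3, at 1.43, so 1 library decides it in either case, and it was 0.48 with the smooth muscle score as a covariate and 0.35 in the linear model with the Ballgown covariate.

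**Figure D2:**
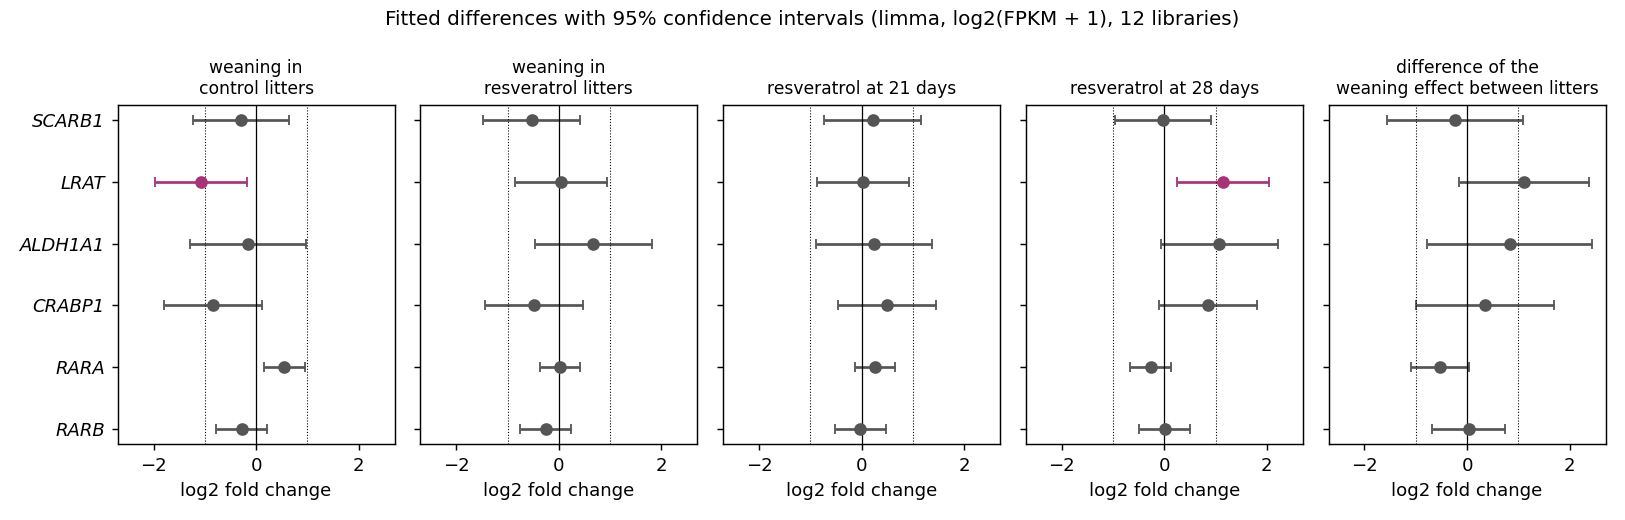
Fitted log2 fold changes (x axis) of the 5 genes tested and of ALDH1A1 in the 5 comparisons, with 95% confidence intervals from limma; dotted lines mark a log2 fold change of -1 and 1. The coloured points are the 2 that meet the study's standard, LRAT at -1.07 after weaning in control litters and at 1.15 with resveratrol at 28 days.

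ALDH1A1, the retinal dehydrogenase that makes retinoic acid in the epithelium, was by far the most abundant of these genes, at a mean of 226 FPKM over 12 libraries, above 98.4% of all genes tested. It was at 130, 147 and 236 FPKM in W_Con, at 198, 125 and 130 in PW_Con, at 322, 211 and 109 in W_Res and at 133, 396 and 574 in PW_Res. The 2 highest libraries were both PW_Res, whose other library lay within the range of PW_Con, so the groups overlapped in every comparison. With resveratrol at 28 days the log2 fold change was 1.07 (standard error 0.52, 95% confidence interval -0.06 to 2.21, limma adjusted p = 0.654). It met the standard after median-of-ratios rescaling (1.18) and without W_Res replicate 3 (1.07). Without PW_Res replicate 1 it became 1.69 and met the standard (limma adjusted p = 0.366), as did the weaning difference in resveratrol litters, at 1.28, and the difference of the weaning effects, at 1.45. Without PW_Res replicate 3 the same 3 values were 0.63, 0.23 and 0.39, and without W_Res replicate 3 the last 2 were 0.26 and 0.42.

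The level of ALDH1A1 moved with the distal marker score, with a Pearson's r of -0.79 and a Spearman's rho of -0.73 over the 12 libraries and an r of -0.82 after the group means were removed. The 5 libraries with FABP6 under 200 FPKM held the 5 highest ALDH1A1 levels, from 211 to 574 FPKM, and the other 7 lay between 109 and 198. With the distal marker score as a covariate, the difference at 28 days was 0.51 (limma adjusted p = 0.816). The same covariate left the weaning difference in resveratrol litters at 0.65, from 0.67, and turned that in control litters from -0.16 to 0.23. It moved the difference at 21 days from 0.24 to 0.083 and the difference of the weaning effects from 0.83 to 0.43. ALDH1A1 exceeded ALDH1A3 in 12 of 12 libraries, at a median ratio of 7.87, and ALDH1A3 exceeded ALDH1A2 in 12 of 12. The mean of ALDH1A3, a second retinal dehydrogenase of the family, was 30.8 FPKM in W_Con and 17.2 in PW_Con (log2 fold change -0.80, limma adjusted p = 0.360), and 33.0 in W_Res and 16.8 in PW_Res (log2 fold change -0.82, limma adjusted p = 0.292), and neither difference passed the test. With the smooth muscle score as a covariate they were -0.93 and -0.040. The standard was met in control litters without W_Con replicate 3 (-1.08) or PW_Con replicate 1 (-1.03), and in resveratrol litters without W_Res replicate 1 (-1.06) or 3. ALDH1A2, the retinal dehydrogenase best known from stromal cells, had a mean of 1.41 FPKM over the 12 libraries and no difference that passed.

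**Figure D3:**
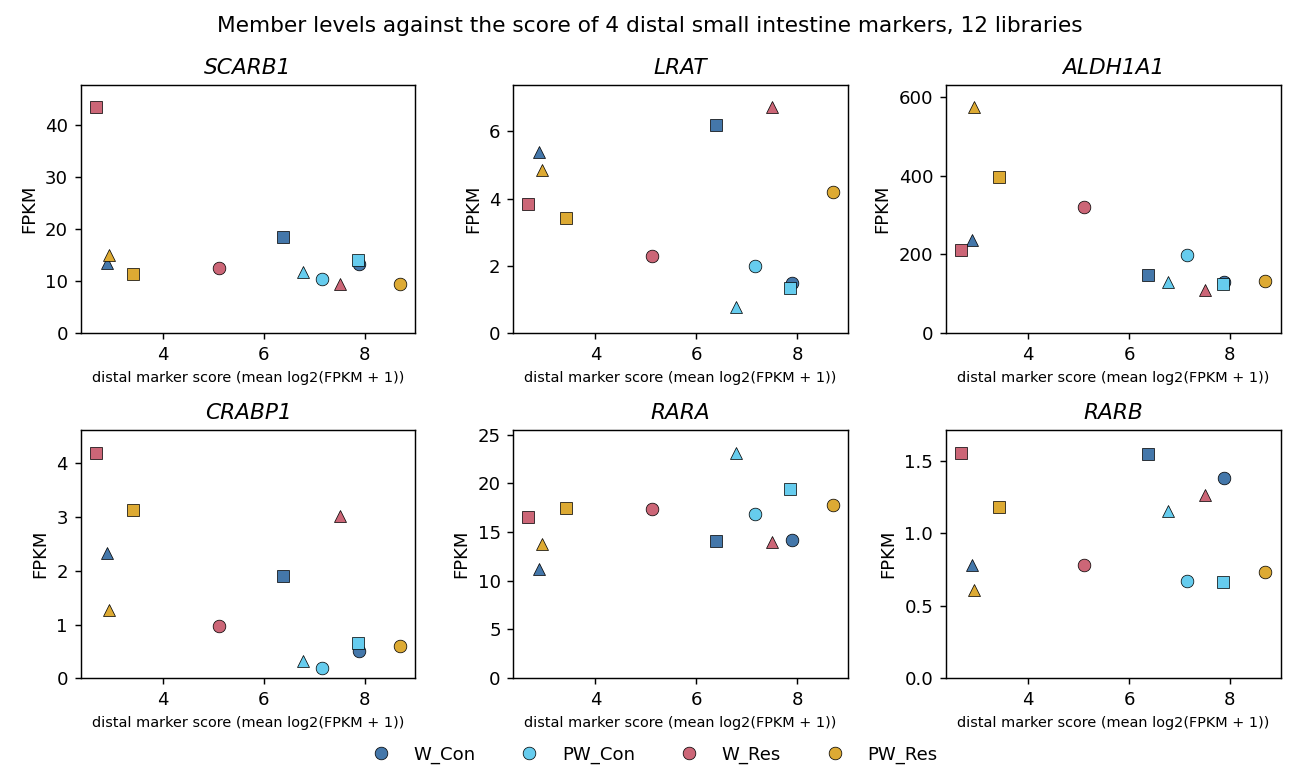
FPKM of each gene (y axis) against the distal marker score, the mean log2(FPKM + 1) of FABP6, SLC10A2, CUBN and SLC51A (x axis), in 12 libraries coloured by group, with circles, squares and triangles for replicates 1, 2 and 3. ALDH1A1 is high only among the 5 libraries at the left of its panel, where it runs from 211 to 574 FPKM, and LRAT shows both high and low levels at high scores.

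The cellular retinoic acid-binding proteins were both low. CRABP1 was at 0.516, 1.90 and 2.34 FPKM in W_Con, at 0.187, 0.648 and 0.320 in PW_Con, at 0.969, 4.20 and 3.02 in W_Res and at 0.598, 3.14 and 1.28 in PW_Res. PW_Con had the lowest mean, 0.385 ± 0.237 FPKM, against 1.59 ± 0.952 in W_Con, 1.67 ± 1.31 in PW_Res and 2.73 ± 1.63 in W_Res (SD, n = 3 each), and every pair of neighbours in that order overlapped. After weaning in control litters the log2 fold change was -0.84 (standard error 0.44, 95% confidence interval -1.79 to 0.12, limma adjusted p = 0.397). The study itself counts CRABP1 among its differentially expressed genes, called at this standard from the same control libraries with its own processing. CRABP1 did not meet the standard in the fit used here. As the libraries are the same, this comparison is not independent evidence of its direction. With resveratrol at 28 days the log2 fold change was 0.85 (standard error 0.44, interval -0.11 to 1.80, limma adjusted p = 0.668).

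These values of CRABP1 depend on the pseudocount. With a pseudocount of 0.1 both differences met the standard, at -1.69 and 1.70, as did control weaning without W_Con replicate 1, at -1.18, and resveratrol at 28 days without PW_Res replicate 1, at 1.16. The latter was 0.48 without PW_Res replicate 2. Across the 12 libraries CRABP1 had an r of -0.64 with the distal marker score and of 0.64 with the proximal marker score, the mean of 6 genes that include APOA4, FABP1 and GATA4. With the distal marker score as a covariate the difference was -0.62 in control weaning and 0.53 with resveratrol at 28 days. CRABP2 ranged from 0.0242 to 1.01 FPKM, its highest library in each 21-day group being replicate 1 (0.642 in W_Con and 1.01 in W_Res), where CRABP1 was lowest. CRABP1 exceeded CRABP2 in the other 10 libraries, and without the filter on low values the log2 fold changes of CRABP2 lay between -0.08 and 0.18.

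RARA, the most abundant retinoic acid receptor here, was at 14.1, 14.1 and 11.2 FPKM in W_Con, at 16.9, 19.4 and 23.1 in PW_Con, at 17.3, 16.6 and 14.0 in W_Res and at 17.7, 17.4 and 13.7 in PW_Res. All PW_Con libraries lay above all W_Con libraries, and the means of the resveratrol groups lay between those of the control groups, with libraries that overlapped each other and both control groups. The control weaning difference was 0.55 on the log2 scale (standard error 0.18, 95% confidence interval 0.15 to 0.95, limma adjusted p = 0.185). It did not reach the fold limit of the standard. An unadjusted P under 0.05 in the higher direction held for 8.11% of all genes tested in this comparison, and groups did not overlap for 24.9%. In the alternatives the difference stayed between 0.44 and 0.66, and the unadjusted P was above 0.05 only without PW_Con replicate 3, where the difference was 0.44. In resveratrol litters the weaning difference of RARA was 0.02 (interval -0.37 to 0.42), and the difference between the 2 weaning effects, -0.53, did not pass the test (limma adjusted p = 0.388). With the smooth muscle score as a covariate these were 0.33 and -0.17, and the control weaning difference was 0.50.

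RARB, whose gene is itself a known retinoic acid target, was at 1.38, 1.55 and 0.785 FPKM in W_Con, at 0.672, 0.664 and 1.16 in PW_Con, at 0.784, 1.56 and 1.27 in W_Res and at 0.734, 1.18 and 0.612 in PW_Res. The groups overlapped, and 4 of the 6 libraries at 21 days lay above every library at 28 days. The log2 fold change after weaning was -0.28 in control litters (interval -0.78 to 0.22) and -0.25 in resveratrol litters (-0.75 to 0.25), and the diets differed by -0.02 at 21 days and 0.01 at 28 days. Among the marker scores RARB had its highest r with the endothelial score, 0.70 over 12 libraries and 0.68 with group means removed, from 2 of 4 listed markers. By Spearman's rho the fibroblast score was closer, at 0.67 against 0.64. The receptors kept 1 order in all 12 libraries, RARA above RARG above RARB, with RARA 9.11 to 29.2 times as high as RARB. RARG, the remaining receptor of the family, was at 2.35 ± 0.764 FPKM in W_Con and 4.28 ± 1.25 in W_Res (SD, n = 3 each). The difference of 0.66 on the log2 scale had an unadjusted P under 0.05 (limma adjusted p = 0.185) and did not reach the fold limit. It was 0.26 with the smooth muscle score as a covariate, 4 of whose 5 markers were higher in W_Res at the standard, and 0.31 in the linear model with the Ballgown covariate.

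The genes did not vary as a block. Over the 12 libraries CRABP1 and LRAT had an r of 0.70 and a rho of 0.64, and LRAT and RARA an r of -0.72 and a rho of -0.74, where libraries of a group share age and diet. With group means removed these became 0.50 and -0.63. The other pairs of the 5 genes tested lay between -0.44 and 0.50. LRAT had an r of 0.64 with the proximal marker score and of -0.65 with the crypt and cell division score, and with group means removed 0.38 and -0.74. RARA had an r of -0.72 with the proximal marker score, 0.38 with the smooth muscle score and 0.77 with the latter once group means were removed. The part of these marker differences in the group differences of LRAT and RARA was not tested beyond the fits with the distal and smooth muscle scores.

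By the correlation of log2 values over the 12 libraries, the genes most like each member were as follows. LRAT was most like MFSD9 (r = 0.89), the gene listed as ENSSSCG00000010432 (0.89) and B3GNT5 (0.87). CRABP1 was most like PCSK4, NCSTN and AQP10 (each 0.88), and RARA like CPSF4 (0.92), POLD2 (0.92) and RHBDL1 (0.91). RARB was most like CALCA (0.91), N6AMT1 (0.89) and CSTPP1 (0.87), and ALDH1A1 like SOD1 (0.96), TMEM243 (0.93) and the gene listed as ENSSSCG00000024859 (0.92). For SCARB1 they were NTNG2 (0.93), LMO3 (0.93) and ST8SIA2 (0.91), but with rank correlations of 0.55 to 0.70.

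Other genes of the vitamin A pathway, 59 by symbol, were counted in the same fit. Of these 40 were found, 7 of them by an Ensembl identifier, and 30 were tested. At the study's standard 1 was higher and 2 were lower after weaning in control litters, 1 and 2 after weaning in resveratrol litters, 0 and 2 with resveratrol at 21 days, 1 and 2 with resveratrol at 28 days, and 3 and 2 in the difference of the weaning effects. All genes tested met it at 3.1%, 4.94%, 4.77%, 1.55% and 7.76% in the same order. None of the 30 had a limma adjusted p under 0.05, the smallest being 0.0950, and 4, 8, 4, 6 and 7 had an unadjusted P under 0.05. The median log2 fold change of the 30 was -0.02, -0.31, 0.21, 0.17 and -0.14, beside -0.01, -0.15, 0.08, -0.07 and -0.15 for all genes tested.

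**Figure D4:**
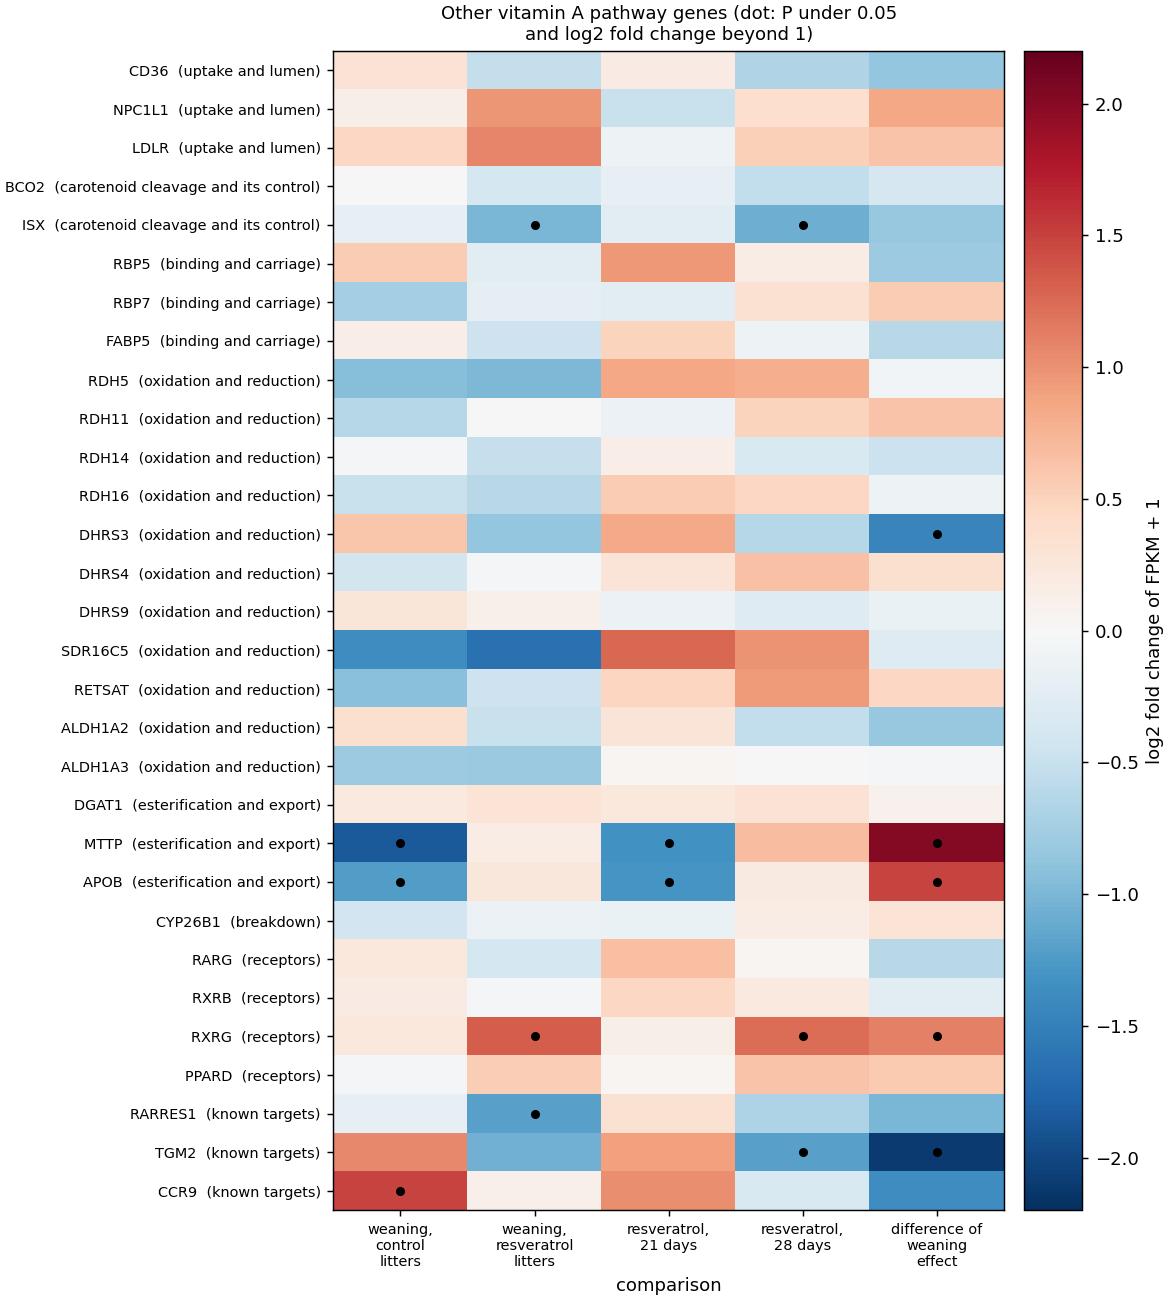
Log2 fold changes of the 30 other pathway genes tested (rows, with their role) in the 5 comparisons (columns), as colour from -2.2 to 2.2; dots mark those that meet the study's standard. MTTP and APOB carry dots in control weaning, resveratrol at 21 days and the difference of the weaning effects, and RXRG and ISX in both comparisons of PW_Res with another group.

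Among the genes of esterification and export, MTTP, the transfer protein that loads lipid onto chylomicrons, was at 198, 285 and 371 FPKM in W_Con, at 135, 78.0 and 40.5 in PW_Con, at 157, 76.4 and 107 in W_Res and at 108, 101 and 166 in PW_Res. W_Con stood above the other 3 groups without overlap. Between 2 groups, overlap was absent in either direction for 21% of all genes tested at 21 days and for 24.9% in control weaning. The share for 1 group above 3 others was not counted. MTTP was lower after weaning in control litters (log2 fold change -1.86, standard error 0.42, limma adjusted p = 0.0950) and lower with resveratrol at 21 days (-1.33, standard error 0.42, limma adjusted p = 0.149). APOB, the structural protein of chylomicrons, listed as ENSSSCG00000008595, was at 2.85, 3.99 and 6.85 FPKM in W_Con, at 1.76, 2.09 and 0.363 in PW_Con, at 1.33, 0.526 and 1.88 in W_Res and at 4.01, 0.793 and 0.919 in PW_Res. Its log2 fold changes were -1.23 in control weaning (limma adjusted p = 0.236) and -1.29 with resveratrol at 21 days (limma adjusted p = 0.174).

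The 21-day differences of both genes lie where the smooth muscle markers differ most. Of the 5 markers, 4 were higher in W_Res than in W_Con at the standard and 4 were lower after weaning in resveratrol litters. With the smooth muscle score as a covariate the difference at 21 days was -0.73 for MTTP and -0.99 for APOB, neither past the standard. In the linear model with the Ballgown covariate it was -0.91 and -1.04, again short of it, and APOB also lost it without W_Con replicate 3 (-1.01) or W_Res replicate 2 (-1.04). In control weaning MTTP kept the standard in every alternative, while APOB lost it without W_Con replicate 3 (-0.95) and without PW_Con replicate 3 (-0.87). The proximal markers were also lower in that comparison, as given beside LRAT, and their part was not tested.

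Among the receptors RXRG, a retinoid X receptor that pairs with the retinoic acid receptors, stood apart in PW_Res. It was at 3.23, 4.13 and 3.51 FPKM in W_Con, at 4.74, 4.93 and 3.64 in PW_Con, at 3.41, 3.28 and 5.71 in W_Res and at 16.4, 10.1 and 9.59 in PW_Res. All 3 PW_Res libraries lay above the other 9, including the PW_Res libraries at either end of the FABP6 range. The log2 fold change was 1.34 after weaning in resveratrol litters (standard error 0.24, 95% confidence interval 0.81 to 1.87, limma adjusted p = 0.103) and 1.23 with resveratrol at 28 days (standard error 0.24, interval 0.70 to 1.76, limma adjusted p = 0.335), 2 comparisons that share the PW_Res libraries. Both met the standard in every alternative run, with adjusted p-values between 0.0287 and 1.00 over the first and 0.157 and 0.936 over the second. Groups did not overlap for 21.7% of all genes tested after weaning in resveratrol litters. RXRB, the more abundant of these receptors in 10 of 12 libraries, had a mean of 10.3 FPKM over the 12 libraries and no difference that passed, and RXRA was not found by symbol.

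ISX, the intestinal homeobox repressor of SCARB1 and of carotenoid cleavage, went the other way in the same group. It was at 2.01, 1.71 and 1.04 FPKM in W_Con, at 2.01, 1.06 and 0.858 in PW_Con, at 1.06, 0.915 and 1.61 in W_Res, and at 0.00140 and 0.249 in PW_Res replicates 1 and 2, and it was listed at 0 in PW_Res replicate 3. The PW_Res libraries lay below all others. Its log2 fold change was -1.01 after weaning in resveratrol litters (standard error 0.25, limma adjusted p = 0.125) and -1.07 with resveratrol at 28 days (standard error 0.25, limma adjusted p = 0.411), and SCARB1 in the same libraries, at 9.47 to 15.0 FPKM, overlapped every other group. The values sit at the fold limit, which they crossed in several alternatives, to -0.81 under quantile normalization for weaning and to -0.86 without PW_Con replicate 1 at 28 days. With a pseudocount of 0.1 they were -3.05 and -3.12.

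BCO2, the oxygenase that cleaves carotenoids off centre, was at 9.13 ± 2.64 FPKM in W_Con, 9.04 ± 2.71 in PW_Con, 8.07 ± 2.94 in W_Res and 6.13 ± 2.72 in PW_Res (SD, n = 3 each), with no difference that passed. It met the standard after weaning in resveratrol litters in the fit with the smooth muscle score, at -1.12, and in the linear model with the Ballgown covariate, at -1.39, as did the difference of the weaning effects in the same fits, at -1.23 and -1.31, from -0.37. Of the other retinol-binding proteins, RBP5 had means of 2.33 FPKM in W_Con and 5.11 in W_Res, without overlap, and a log2 fold change of 0.95 (limma adjusted p = 0.299), which was -0.0041 with the smooth muscle score, 1.03 with the distal marker score as a covariate and 1.29 without W_Con replicate 2, the last 2 meeting the standard. RBP7 ranged from 0.111 to 4.14 FPKM, with W_Con replicate 3 and W_Res replicate 3 the highest, and had no difference that passed, though it met the standard after weaning in resveratrol litters with the smooth muscle score as a covariate (-1.33) and in the linear model with the Ballgown covariate (-1.70). RBP4, the plasma carrier of retinol, stayed under the filter at 0 to 1.61 FPKM and was not tested. DHRS3, which reduces retinal back to retinol, was at 30.8, 31.1 and 13.6 FPKM in W_Con, at 33.8, 41.6 and 35.0 in PW_Con, at 27.8, 65.1 and 43.7 in W_Res and at 21.4, 25.7 and 23.6 in PW_Res. PW_Con lay above W_Con and PW_Res below W_Res, both without overlap, as groups were in either direction for 24.9% and 21.7% of all genes tested. The log2 fold changes were 0.61 (limma adjusted p = 0.422) and -0.84 (limma adjusted p = 0.236), both inside the fold limit. The second was 0.059 in the linear model with the Ballgown covariate and -0.30 with the smooth muscle score as a covariate, and it met the standard without W_Res replicate 1, at -1.15. All 6 fibroblast markers were lower in that comparison too, 4 at the standard, and their part was not tested. At 21 days DHRS3 differed by 0.84 between diets (limma adjusted p = 0.217), with overlap, and this met the standard without W_Con replicate 1 (1.02), W_Con replicate 2 (1.03) or W_Res replicate 1 (1.14) and was 0.27 with the smooth muscle score as a covariate.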

How the data were processed

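Gene expression was given by the authors as FPKM, and the deposited table holds 1 value per locus and library. The study names TopHat, StringTie and Ballgown, and the submitters' processing notes name HISAT2 2.0, StringTie 1.3.0 and Bowtie 0.12.2, with the builds Sscrofa10.2 and mm8. No scaling beyond FPKM is stated, and the depth behind a gene is unknown. Rows without a gene name (17650, 42.8%) were left out, rows sharing a name were summed, and no value column was left unmatched. Of 6232 names that are Ensembl identifiers, 2139 had a symbol in the annotation of Sscrofa11.1. Coordinates and sequences were not used here.

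log2(FPKM + 1) was fitted by limma 3.58.1 under R 4.3.3 (lmFit, then eBayes with a trend), over all 12 libraries with 1 coefficient per group, for 12886 genes with a mean of at least 0.5 FPKM. Named were all members, the 3 genes most correlated with each, and, of the other pathway genes, paralogs and those meeting the standard in at least 1 comparison. The members and all gene and marker lists were chosen with earlier results of these data known. The labels name replicates of a group but not how samples were handled, so that p-values measure the spread between these libraries. In simulated data for weaning in control litters, 188 of 200 changed genes (94%, log2 fold change of 2) met the standard among 12725 genes. In the same data 2 changed genes had the wrong sign, and 9 unchanged genes had a limma adjusted p under 0.05. Recovery of differences the size of those of LRAT, -1.07 in control weaning and 1.15 with resveratrol at 28 days, was not tested. Alternatives were another pseudocount, other filters, rescalings and models, leaving out each replicate and, chosen after seeing the data, 2 marker score covariates.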

Additional observations from a re-analysis of the deposited data

Results flagged for a closer look

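The weaning effect differed between resveratrol and control litters, by an unadjusted P under 0.05 for the difference itself, for 7 of the other pathway genes, beside 13.7% of all genes tested. No gene passed 0.05 after adjustment in limma. The difference, resveratrol minus control litters on the log2 scale, was 2.02 for MTTP (limma adjusted p = 0.251), 1.48 for APOB (0.340), 1.11 for RXRG (0.252), -0.84 for ISX (0.329), -1.46 for DHRS3 (0.263) and -2.11 for TGM2 (0.264). The remaining gene, CD36, at -0.85 (limma adjusted p = 0.305), is outside the rule for named genes and was named after its values were seen. With a pseudocount of 0.1 ISX was at -2.75 and met the standard. The difference of APOB lost the standard in 11 of 23 alternatives, among them a pseudocount of 0.1 (2.19), no filter on low values and the replicate block. For DHRS3 all PW_Con libraries lay above all W_Con libraries, and all PW_Res libraries below all W_Res libraries. Groups did not overlap, in either direction, for 24.9% of all genes tested in control weaning and 21.7% in resveratrol litters. The share of genes with opposite directions was not counted. The W_Res libraries were also those with the most smooth muscle marker RNA by summed FPKM. By the smooth muscle score PW_Res replicate 1 (6.48) lay above W_Res replicate 3 (6.45). With that score as a covariate the difference was 1.33 for MTTP, 1.14 for APOB, -0.82 for DHRS3, -1.20 for TGM2 and -0.87 for ISX, none past the standard, and 1.04 for RXRG, which met it. RXRG lost it in 4 of 23 alternatives, at 1.06 in the linear model with the Ballgown covariate and at 0.88 to 1.00 without PW_Con replicate 3, PW_Res replicate 1 or W_Res replicate 2. In that linear model none of these 6 genes met the standard.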

How the results depend on the processing

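Of the 5 counts of members meeting the standard, 0 after weaning in resveratrol litters and 0 with resveratrol at 21 days held under every alternative. Control weaning (1) became 2 with a pseudocount of 0.1, with CRABP1 beside LRAT, and 0 with the smooth muscle score as a covariate, and ran from 0 to 2 as single replicates were left out. Resveratrol at 28 days (1) became 2 with a pseudocount of 0.1 and 0 in the linear model with the Ballgown covariate (LRAT, 0.82), and ran from 0 to 2 without single replicates, and the difference of the weaning effects (0) from 0 to 1. With a replicate block the counts were 1, 0, 0, 1 and 0. With group means removed, correlations of same-numbered libraries ran from -0.26 to 0.30 (5 of 18 above 0.1). Those of differently numbered libraries ran from -0.27 to 0.36 (7 of 36 above 0.1). The same-numbered pairs include pairs across diets, so these values cannot settle whether libraries of a diet share litters. Among the differences of named genes with an unadjusted P under 0.05, DHRS3 after weaning in resveratrol litters was the 1 that changed sign, at 0.059 in the Ballgown model. Differences above that P also changed sign, among them ALDH1A3 (0.29) and RARG (0.27) in the same comparison and model, and RBP5 at 21 days (-0.0041) and in the difference of the weaning effects (0.29) with the smooth muscle score. All genes meeting the standard in the order of the comparisons were 399, 636, 615, 200 and 1000, and with a pseudocount of 0.1 the first 4 became 783, 1237, 1185 and 456. The Ballgown model gave 211, 311, 124 and 291 for the last 4, a minimum of 2 FPKM 386 and quantile normalization 410 for weaning in resveratrol litters, and the smooth muscle score 382 there and 479 for the difference. Leaving out single replicates moved them to 344 to 511, 385 to 1101, 407 to 1017, 195 to 358 and 633 to 1367, by over 1.5 times without W_Res replicate 1 (1101 and 1017), 2 (385 and 407) or 3 (948), PW_Res replicate 1 (358) or W_Con replicate 3 (633). The median log2 fold change of all genes, -0.15 after weaning in resveratrol litters, was removed by rescaling, under which LRAT kept the standard in control weaning and with resveratrol at 28 days. The cause of these changes was not tested. FPKM give no counts, which limits low genes such as CRABP1 and CRABP2.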

Other observations

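Of 6 known retinoic acid targets listed, 4 were found and 3 tested. RARRES1, a retinoic acid-induced membrane protein, was at 10.9, 10.8 and 4.68 FPKM in W_Con, at 6.90, 8.59 and 6.06 in PW_Con, at 5.90, 15.9 and 12.6 in W_Res and at 3.61, 4.85 and 3.89 in PW_Res. It was lower after weaning in resveratrol litters by -1.20 on the log2 scale (standard error 0.35, limma adjusted p = 0.155), a value that moved to -0.93 without W_Res replicate 2, to -0.76 with the smooth muscle score as a covariate and to -0.44 in the linear model with the Ballgown covariate. In this comparison all 6 fibroblast markers were also lower, 4 at the standard (median log2 fold change -1.27), and their part was not tested. TGM2, tissue transglutaminase, was at 15.0, 19.0 and 3.70 FPKM in W_Con, at 16.6, 27.4 and 26.1 in PW_Con, at 16.9, 20.1 and 25.5 in W_Res and at 7.94, 16.9 and 5.96 in PW_Res. With resveratrol at 28 days it was lower by -1.20 (standard error 0.50, limma adjusted p = 0.609), with 1 PW_Res library inside the range of PW_Con, and the standard was lost without any 1 of PW_Con replicates 2 and 3 or PW_Res replicates 1 and 3 (-0.91 to -1.11), with the distal marker score as a covariate (-0.94) and in the linear model with the Ballgown covariate (-0.88). After weaning TGM2 differed by 1.06 in control litters (limma adjusted p = 0.344) and by -1.05 in resveratrol litters (limma adjusted p = 0.295). Neither met the standard, and that was unchanged in 18 and 19 of 24 alternatives.

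CCR9, the gut-homing receptor that retinoic acid gives to lymphocytes, was at 0.247, 0.506 and 0.471 FPKM in W_Con, at 3.46, 1.04 and 5.58 in PW_Con, at 0.0242, 5.37 and 2.59 in W_Res and at 0.427, 3.84 and 3.26 in PW_Res. All PW_Con libraries lay above all W_Con libraries, and the resveratrol groups each had 1 low library. Without W_Res replicate 1, the low library of its group, CCR9 met the standard with resveratrol at 21 days (1.77, from 1.03). In the same fit the difference of the weaning effects also met it (-2.11, from -1.37). The control weaning difference was 1.48 (standard error 0.66, limma adjusted p = 0.317), and it lost the standard when any 1 of 5 of the 6 control libraries was left out (1.11 to 1.53), the exception being PW_Con replicate 2, and without W_Res replicate 3 or PW_Res replicate 3. It also lost the standard with a pseudocount of 0.1 (2.53), without the filter on low values (1.48), with the highest-mean locus of each gene (1.52), in the linear model with the Ballgown covariate (1.47) and with the smooth muscle score as a covariate (1.53), so that it held in 12 of 24 alternatives.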
